A study of Mus musculus with 3 samples.

Results

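The cone photoreceptors of the retina were taken as the cells that carry cluster number 4 in the deposited cell table, in all 3 libraries. They numbered 1232 of 15242 cells: 278 of 4478 in the wild-type library (WT), 542 of 5952 in rd10-vehicle and 412 of 4812 in rd10-TMB. All mice were C57BL/6J, 8 weeks old and reared in the dark throughout. WT mice ate base chow without drug (labelled Vehicle) and were of both sexes (2 female and 2 male), the rd10-vehicle mice were females with the rd10 allele of Pde6b (labelled Rd10) on the same chow, and the rd10-TMB mice were rd10 females whose chow held tamsulosin, metoprolol and bromocriptine (TMB). All 3 drugs act on receptors for catecholamines, the last as an agonist and the others as antagonists. Each group was 1 library of papain-dissociated retinas. The labels give 1 retina from each of 4 mice per pool, while the methods of the study give 3 mice for each rd10 pool. There was thus 1 library for each group, no test between groups was possible, and the animals of a pool could not be separated. Because the WT pool held males, sex cannot be told apart from genotype wherever WT enters.

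Cones are the photoreceptors of daylight and colour vision. Light closes their cGMP-gated channel through an opsin, the cone transducin and a phosphodiesterase, and cone arrestin (Arr3) then quenches the opsin. Most mouse cones hold both the short-wavelength opsin (Opn1sw) and the medium-wavelength opsin (Opn1mw), in proportions that change from the dorsal to the ventral retina. In rd10 mice the mutated gene is a rod gene, so that rods die first and cones follow. Cones lean heavily on glycolysis, with glucose that reaches them through the pigment epithelium and the Müller glia.

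Levels are given as unique molecular identifiers (UMIs) summed over the cones of a library, per 1000000 UMIs of those cones (CPM). Where values are given 3 at a time they follow the order WT, rd10-vehicle, rd10-TMB. A library ratio is a log2 ratio of CPM with 1 UMI added to each sum, so that 1 is a doubling and a negative value is a lower level in the first-named library; between the rd10 libraries it is always TMB over vehicle. The 95% intervals in brackets cover counting error only and say nothing of the spread between animals. The sums rest on 1424950, 2565092 and 2173051 UMIs, with a median of 5333, 4857 and 5548.5 UMIs per cone. The median mitochondrial share of UMIs per cone was 8.77%, 10.2% and 10.3%. No cell barcode was shared between cones of different libraries, and 3 cones had a barcode also seen in another cell of another library.

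The label held against its markers. Of the 10 genes with the highest ratio of cones over all other cells, Opn1sw, Pde6h, Opn1mw, Pde6c, Cnga3 and Arr3 belong to the cone light response. The others were Gm42697, Erich6, 4930458D05Rik and Cckbr, a cholecystokinin receptor. The 5 cone markers summed to 35268, 32398 and 33732 CPM, against at most 318 CPM in rods. Since the cells were clustered on these genes, this describes the cluster and tests nothing. Markers of rods summed to 11520, 11182 and 11775 CPM in cones, largely through Sag, Gngt1 and Pde6g, and microglia markers stayed at or under 3.51 CPM. Müller glia markers summed to 697, 1295 and 1167 CPM in cones and to 552, 1171 and 1114 CPM in rods, so they were higher in both photoreceptor classes of the rd10 libraries.

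Cones made up 6.21% (5.52 to 6.96%), 9.11% (8.39 to 9.87%) and 8.56% (7.79 to 9.39%) of the recovered cells. With the Müller glia cluster left out, the shares were 7.04%, 15.7% and 13.4%. These are shares of cells that survived dissociation, and fewer cells of another kind raises them.

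The upstream sequences of the genes whose levels carry the account below are shown first, so that the letters can be set beside the values. Each is the 250 bases before a RefSeq transcription start on GRCm38, on the strand of the gene. For the 3 cone genes Arr3, Opn1sw and Opn1mw the letters TAATC on either strand are in capitals, the core that the photoreceptor factor CRX is known to bind. They lie at chrX:100605247-100605496 (plus strand), chr6:29380514-29380763 (minus strand) and chrX:74127216-74127465 (plus strand).

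Arr3: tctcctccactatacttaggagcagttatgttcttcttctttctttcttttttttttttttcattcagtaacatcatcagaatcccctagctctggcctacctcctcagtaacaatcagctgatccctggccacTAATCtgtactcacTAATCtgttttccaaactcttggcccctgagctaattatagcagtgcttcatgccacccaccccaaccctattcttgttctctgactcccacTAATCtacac

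Opn1sw: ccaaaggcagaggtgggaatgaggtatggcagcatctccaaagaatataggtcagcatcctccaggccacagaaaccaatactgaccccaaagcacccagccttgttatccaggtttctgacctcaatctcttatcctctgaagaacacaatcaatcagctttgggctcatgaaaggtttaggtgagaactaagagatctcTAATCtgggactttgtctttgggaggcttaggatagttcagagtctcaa

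Opn1mw: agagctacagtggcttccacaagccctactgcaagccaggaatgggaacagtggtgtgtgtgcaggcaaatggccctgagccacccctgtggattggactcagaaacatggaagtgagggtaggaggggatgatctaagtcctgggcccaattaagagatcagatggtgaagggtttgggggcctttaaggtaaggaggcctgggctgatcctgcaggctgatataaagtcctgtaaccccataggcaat

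Arr3 held 3 matches and Opn1sw 1, while Opn1mw held none in this window. The longer letters TAATCC, searched first, matched none of these 3 windows, and TAATC was chosen after that. TAATC occurred in 19.8% of all 32851 windows and in 8 of the 13 genes of the cone phototransduction list with a window, and TAATCC in 6.25% and 5 of 13. Windows of genes from groups that moved together follow, with ACGTG, the core of the hypoxia response element and of E-boxes, in capitals for the glycolytic genes Pgam1 (chr19:41911621-41911870, plus strand) and Pgk1 (chrX:106186850-106187099, plus strand), and TGACG, the cAMP response half-site, in capitals for the immediate-early genes Fos (chr12:85473640-85473889, plus strand) and Junb (chr8:84978749-84978998, minus strand).

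Pgam1: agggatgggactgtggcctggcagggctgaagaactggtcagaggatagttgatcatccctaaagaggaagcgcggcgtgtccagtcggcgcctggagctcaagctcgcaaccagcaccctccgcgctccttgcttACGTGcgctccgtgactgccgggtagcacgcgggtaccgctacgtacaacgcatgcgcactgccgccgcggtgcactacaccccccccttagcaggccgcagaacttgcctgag

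Pgk1: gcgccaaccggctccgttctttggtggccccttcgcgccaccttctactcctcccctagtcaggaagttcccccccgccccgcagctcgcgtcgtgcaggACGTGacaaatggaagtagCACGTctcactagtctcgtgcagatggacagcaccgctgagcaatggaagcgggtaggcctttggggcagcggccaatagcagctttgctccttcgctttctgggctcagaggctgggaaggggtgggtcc

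Fos: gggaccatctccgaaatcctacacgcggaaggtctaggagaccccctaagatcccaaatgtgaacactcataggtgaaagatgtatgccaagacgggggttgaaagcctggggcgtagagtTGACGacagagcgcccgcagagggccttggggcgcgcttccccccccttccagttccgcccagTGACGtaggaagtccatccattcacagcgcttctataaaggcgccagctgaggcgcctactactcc

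Junb: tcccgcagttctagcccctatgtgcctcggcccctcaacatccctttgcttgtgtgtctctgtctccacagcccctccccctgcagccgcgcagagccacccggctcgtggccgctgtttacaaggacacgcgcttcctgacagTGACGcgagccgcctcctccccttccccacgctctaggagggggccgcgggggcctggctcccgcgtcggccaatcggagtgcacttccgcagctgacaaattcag

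ACGTG occurred in 16.6% of all windows and in 10 of 21 glycolysis genes, and TGACG in 17.8% of all windows and in 14 of 21 immediate-early genes. Over the 13327 genes of the matrix with a window the shares were 23.4% and 28.0%. The window of Tpi1 held no ACGTG, and Pgam1 and Pgk1 were picked for display after the matches were known. A match is a description of letters and not a bound site.

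Genes of the glycolytic pathway were lower in the cones of both rd10 libraries than in WT cones. Of the 22 genes of the glycolysis and lactate list, 21 had at least 50 UMIs over the 3 libraries, and 10 of them were at least 1.5-fold lower in rd10-vehicle than in WT, where 6.49% of the 8657 genes with that many UMIs were. None was 1.5-fold higher, where 5.04% of all were. The median of the list was a log2 ratio of -0.44 for rd10-vehicle over WT and -0.40 for rd10-TMB over WT, against -0.05 and -0.04 over all 8657 genes. For rd10-TMB over WT, 9 were at least 1.5-fold lower (7.09% of all genes), and between the rd10 libraries the median was 0.03.

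These 10 lower genes code for enzymes and for the glucose transporter Slc2a1. Aldoa, the aldolase that splits fructose bisphosphate (chr7:126795234-126800994), stood at 2261, 1292 and 1280 CPM. Its log2 ratio was -0.81 (-0.88 to -0.74) for rd10-vehicle over WT and -0.01 (-0.09 to 0.06) between the rd10 libraries. Tpi1, triosephosphate isomerase, had 564, 307 and 324 CPM and a ratio of -0.88 (-1.02 to -0.73) in rd10-vehicle.

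Pgam1, phosphoglycerate mutase, had 646, 333 and 346 CPM, a ratio of -0.96 (-1.09 to -0.82). Eno1, enolase, had 521, 292 and 347 CPM, -0.83 (-0.98 to -0.69). In each of these the WT cones were high and the rd10 libraries lay close together. Pfkl, the liver form of phosphofructokinase, had 121, 62.4 and 64.4 CPM (-0.96, -1.28 to -0.64), Gpi1 376, 246 and 249 CPM, and Pgk1 360, 235 and 216 CPM. The remaining 3 of the 10 were Pfkp, the platelet form of phosphofructokinase, at 89.1, 49.1 and 58.0 CPM, Aldoc, another aldolase, at 192, 112 and 145 CPM, and Slc2a1 at 44.9, 29.6 and 35.0 CPM.

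Other genes of the list were less than 1.5-fold apart in rd10-vehicle. Hk2, the hexokinase that photoreceptors use, had 830, 687 and 635 CPM (-0.27, -0.38 to -0.16), and Gapdh had 2078, 1557 and 1573 CPM (-0.42, -0.49 to -0.35). Ldha, which makes lactate, had 855, 794 and 769 CPM (-0.11, -0.21 to -0.00), and the lactate transporter Slc16a1 and its partner Bsg had intervals that held 0 in rd10-vehicle. Nxnl1, which encodes the rod-derived cone viability factor and a related thioredoxin-like form, had 122, 128 and 81.0 CPM. It was the only gene of this list at least 1.5-fold apart between the rd10 libraries (-0.66, -0.93 to -0.39), 1 of 21 where 3.33% of all genes were as much lower.

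This list was compared with the same genes in rods, rod bipolar cells and Müller glia, whose cells came from the same 3 pools. Its median for rd10-vehicle over WT was -0.01 in rods (20 genes), 0.01 in rod bipolar cells (19 genes) and 0.06 in Müller glia (21 genes). Each gene's ratio in cones minus its ratio in the other class shows the size of the gap. For Aldoa the gap was -1.03 against rods (-1.13 to -0.93) and -0.71 against rod bipolar cells (-0.81 to -0.61), with an interval of -1.10 to -0.90 against Müller glia. For Pgam1 it was -0.71 (-0.91 to -0.51), -0.91 (-1.06 to -0.75) and -1.16 (-1.34 to -0.99), and for Pgk1 -0.39 (-0.65 to -0.13), -0.50 (-0.72 to -0.27) and -0.69 (-0.89 to -0.49). Of the 21 genes 10 had intervals below 0 against all 3 classes: Gapdh, Pkm and 8 of the 10 that were 1.5-fold lower in cones. The other two had intervals that held 0, Pfkp against rods and Slc2a1 against Müller glia. Genes picked for a low ratio in cones tend to a gap below 0 by that choice, so the gaps are given as a description.

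**Figure D1:**
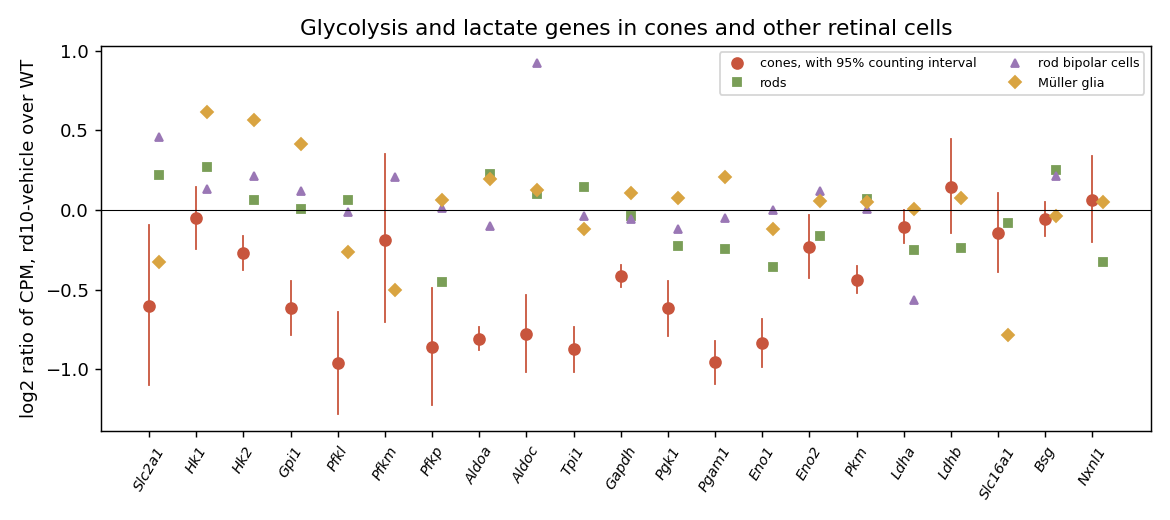
Log2 ratio of CPM, rd10-vehicle over WT, for the 21 glycolysis and lactate genes along the horizontal axis; circles are cones with 95% counting intervals, and the other symbols are rods, rod bipolar cells and Müller glia with at least 50 UMIs and no interval drawn. The cone circles for Aldoa, Tpi1, Pgam1, Pfkl and Eno1 lie between -0.81 and -0.96, below the symbols of the other cells.

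Of the 20 genes of the cone phototransduction list, 19 had at least 50 UMIs. Their median was -0.26 for rd10-vehicle over WT and -0.24 for rd10-TMB over WT, with 2 genes at least 1.5-fold lower in each case (6.49% and 7.09% of all genes) and 2 above 0. For rd10-TMB against rd10-vehicle the median was -0.02, with none 1.5-fold apart (3.33% of all 8657 genes were lower and 2.22% higher). With a mitochondrial share of 10% or less the rd10-TMB median was -0.16. Opn1sw stood at 8253, 6541 and 6455 CPM, and Opn1mw at 5199, 5017 and 4769 CPM. The opsin level of the pool reads both the level in each cone and the mixture of cones, which is taken apart below.

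Downstream of the opsins, the cone transducin subunits did not move together. Gnat2, the alpha subunit, had 3094, 2647 and 2611 CPM. Gnb3, the beta subunit, had 3062, 3478 and 2666 CPM, a ratio of -0.38 (-0.43 to -0.34) between the rd10 libraries. Gngt2, the gamma subunit, had 6155, 5205 and 5993 CPM, with a ratio of 0.20 (0.17 to 0.24) between the rd10 libraries. Pde6h, the inhibitory gamma subunit of the cone phosphodiesterase, was the highest of the list at 13965, 14479 and 14889 CPM.

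Cnga3, the alpha subunit of the cone channel, had 112, 71.3 and 97.1 CPM, with -0.65 (-0.96 to -0.33) for the step from WT to vehicle and 0.44 (0.15 to 0.74) for that from vehicle to TMB. Its partner Cngb3 had 570, 451 and 486 CPM. Guca1b, a calcium sensor that activates guanylate cyclase, was the gene of this list that was lowest relative to WT: 132, 35.1 and 32.2 CPM (188, 90 and 70 UMIs). Rods held far more of it, at 1913, 1747 and 1717 CPM, and of the 12 rod markers 5 were at least 1.5-fold lower in rd10-vehicle cones than in WT cones, with a median of -0.30, and 1 was higher (6.49% and 5.04% of all genes). In rd10-TMB cones, where Guca1b was as low, 2 were at least 1.5-fold lower than in WT (7.09% of all genes) and the median was -0.12. The part of rod RNA in the value of Guca1b was not tested. Guca1a, the main cone form, had 6464, 5507 and 5998 CPM. Rgs9bp, the anchor of the complex that shuts transducin off, had 279, 190 and 177 CPM. Its partners Rgs9 and Gnb5 had ratios of -0.20 and -0.37 in rd10-vehicle.

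The fate factor list had 11 of 12 genes measured, a median of -0.20 for rd10-vehicle over WT, where that of all genes was -0.05, and 0.05 between the rd10 libraries. The first was -0.34 with cells thinned to 1000 UMIs and -0.37 without the 25% of cones highest in rod markers. None was 1.5-fold apart in rd10-vehicle from WT (6.49% of all genes were lower and 5.04% higher). Crx, the homeobox factor of all photoreceptors, had 642, 429 and 499 CPM (-0.58, -0.71 to -0.45, in rd10-vehicle). Thrb, the thyroid hormone receptor needed for the medium-wavelength opsin, had 568, 447 and 406 CPM. Rxrg, its partner that represses the short-wavelength opsin, had 71.6, 53.4 and 72.2 CPM. Neurod1 had 1216, 1365 and 1101 CPM, higher than WT in rd10-vehicle and lower in rd10-TMB. Prdm1, at 34.4, 35.9 and 54.3 CPM, was at least 1.5-fold higher in rd10-TMB than in either other library (0.59, 0.19 to 1.01, over rd10-vehicle), 1 of 11 where 4.68% of all genes were against WT and 2.22% against rd10-vehicle.

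The outer segment and cilium list (21 of 22 genes) had a median of -0.14 in rd10-vehicle (0.02 with cells thinned to 1000 UMIs) and -0.19 in rd10-TMB over WT, and the synapse list (20 of 21) -0.17 and -0.18. None of either list was 1.5-fold apart between the rd10 libraries (2.22% of all genes were higher and 3.33% lower). None was in rd10-vehicle from WT either (5.04% and 6.49% of all genes). In rd10-TMB 2 outer segment genes were lower than in WT (7.09% of all genes). Rom1, a disc rim protein, had 1117, 1507 and 1127 CPM, with ratios of 0.43 (0.35 to 0.52) for rd10-vehicle over WT and -0.42 (-0.49 to -0.35) between the rd10 libraries, while its partner Prph2 had 1335, 1168 and 1092 CPM. At the terminal, Slc17a7, the glutamate transporter of synaptic vesicles, had 1227, 988 and 994 CPM, and Rims2, an active zone protein, 427, 331 and 295 CPM.

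Each cone was then placed by its opsin balance, the share of Opn1mw among its Opn1sw and Opn1mw UMIs. Cones with at least 10 opsin UMIs were used: 266, 505 and 377. A cone was called S-dominant up to a share of 0.2 and M-dominant from 0.8. S-dominant cones were 36.5% (30.7 to 42.6%), 29.9% (25.9 to 34.1%) and 28.9% (24.4 to 33.8%) of these. M-dominant cones were 32.3% (26.7 to 38.3%), 42.2% (37.8 to 46.6%) and 38.5% (33.5 to 43.6%). The opsin total differs between the kinds: the median was 84, 75 and 74 opsin UMIs in S-dominant and 43.5, 38 and 38 in M-dominant cones, so that the minimum of 10 UMIs weighs on M-dominant cones. With each cone thinned to 1000 UMIs the M-dominant shares were 17.4%, 17.5% and 15.6%, and the order was lost. With limits of 0.1 and 0.9 the S-dominant shares were 13.5%, 17.0% and 15.1%, so that WT went from the highest to the lowest. The balance is a range with 2 ends: 42, 54 and 57 cones lay within 0.05 of the lower limit and 4, 6 and 6 within 0.05 of the upper one.

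**Figure D2:**
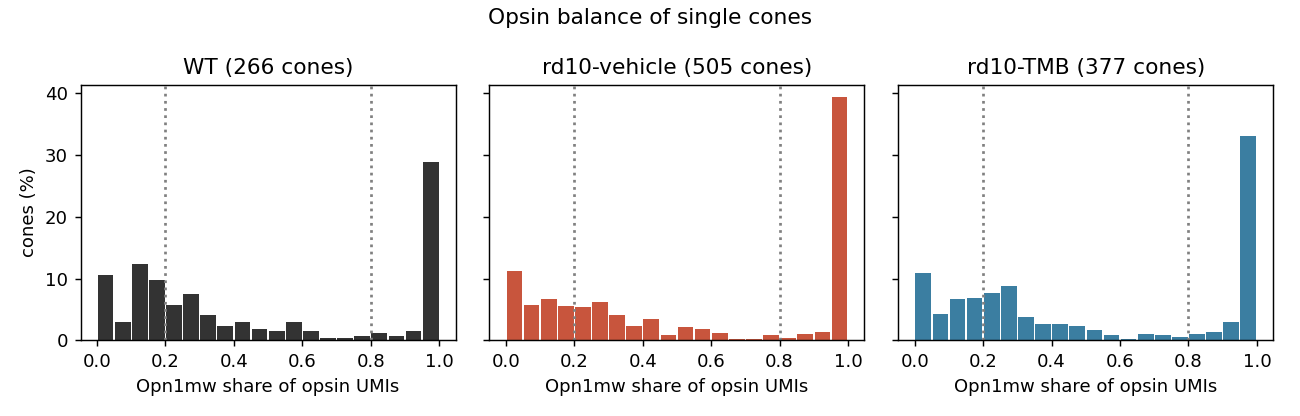
Share of cones in percent against the Opn1mw share of opsin UMIs, in steps of 0.05, for the 3 libraries; dotted lines mark the limits of 0.2 and 0.8. Each library has a broad group at low shares and a narrow peak at the upper end, where 77 of 266, 199 of 505 and 125 of 377 cones had a share of 0.95 or more.

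Some genes other than the opsins differed between the 2 kinds of cone in the same direction in all 3 libraries. Of the 3344 genes with at least 200 UMIs in these cones, 78 (2.33%) were at least 1.5-fold higher in M-dominant cones by the median of the 3 libraries and had one sign, and 46 (1.38%) were lower. These ratios compare cells of 1 library with each other, so genotype and treatment are the same on both sides. The WT pool held both sexes, and whether each kind held them in the same proportion was not tested. Highest in M-dominant cones were Gm44532, A930001M01Rik and Smug1, a DNA repair glycosylase. Smug1 had 271, 209 and 193 CPM in M-dominant cones of WT, rd10-vehicle and rd10-TMB and 32.0, 34.1 and 30.0 CPM in S-dominant ones. Samd7, a transcriptional repressor of photoreceptors, had 186, 183 and 146 CPM against 36.0, 29.7 and 7.50 CPM. Thrb was higher in M-dominant cones in each library too, with ratios of 0.51, 0.72 and 0.80.

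Lowest in M-dominant cones were 5430419D17Rik, App, the amyloid precursor, Ccdc136 and Syndig1l. Ccdc136 had 1407, 1414 and 1405 CPM in S-dominant cones and 152, 43.6 and 233 CPM in M-dominant ones. It lies at chr6:29396574-29426995, next to Opn1sw at chr6:29376671-29380513. App had 98.1, 117 and 111 CPM in S-dominant cones and 10.7, 11.6 and 9.23 CPM in M-dominant ones. In S-dominant cones Ccdc136 and App thus lay close together in all 3 libraries. In M-dominant cones Ccdc136 did not: rd10-vehicle stood at -1.79 (-2.35 to -1.25) over WT, and the TMB library at 2.40 (1.96 to 2.90) over vehicle. Opn1sw, which was used to define the kinds, had 128, 73.9 and 135 CPM in M-dominant cones, and over all kinds 64, 172 and 95 cones had no Opn1sw UMI. Its part in the values of S-linked genes in M-dominant cones was not tested.

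Kcne2, an accessory subunit of voltage-gated potassium channels (chr16:92292389-92298133), is one of the S-linked genes, and its library ratios differed between the kinds. In S-dominant cones it had 1081, 725 and 624 CPM, and in M-dominant cones 562, 126 and 194 CPM. The ratio for rd10-vehicle over WT was -0.57 (-0.75 to -0.40) in S-dominant and -2.16 (-2.47 to -1.86) in M-dominant cones, a difference of -1.58 (-1.93 to -1.24). Between the rd10 libraries it was -0.22 (-0.42 to -0.01) and 0.62 (0.29 to 0.96), a difference of 0.84 (0.46 to 1.22).

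Arr3, which the study picked on these libraries, showed a like split. Its level was 3665, 3545 and 4656 CPM in S-dominant cones, and 5865, 3446 and 5068 CPM in M-dominant cones. The ratio for rd10-vehicle over WT was therefore -0.05 (-0.14 to 0.04) in the first kind and -0.77 (-0.84 to -0.70) in the second, a difference of -0.72 (-0.83 to -0.61). With TMB against vehicle Arr3 was higher in both kinds, by 0.39 (0.31 to 0.47) and 0.56 (0.49 to 0.62). Arr3 lies on the X chromosome, and against the 126 WT cones with Xist and no Y-linked UMI the pooled ratio for rd10-vehicle was -0.16 in place of -0.36, and for rd10-TMB 0.27 in place of 0.07. Xist was lower in M-dominant than in S-dominant cones of each library (log2 ratios of -0.52, -0.33 and -0.60), while Arr3 was higher in M-dominant cones of WT (0.68). Asking for Xist in WT alone can thus change the mixture of kinds as well as sex, and the part of each was not tested. The comparison between the rd10 libraries, both of females, does not involve WT. Per single cone thinned to 1000 UMIs, Arr3 had a mean of 4.84, 3.63 and 5.17 UMIs with SDs of 3.19, 2.36 and 3.07, so the distributions of single cones overlapped widely.

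**Figure D3:**
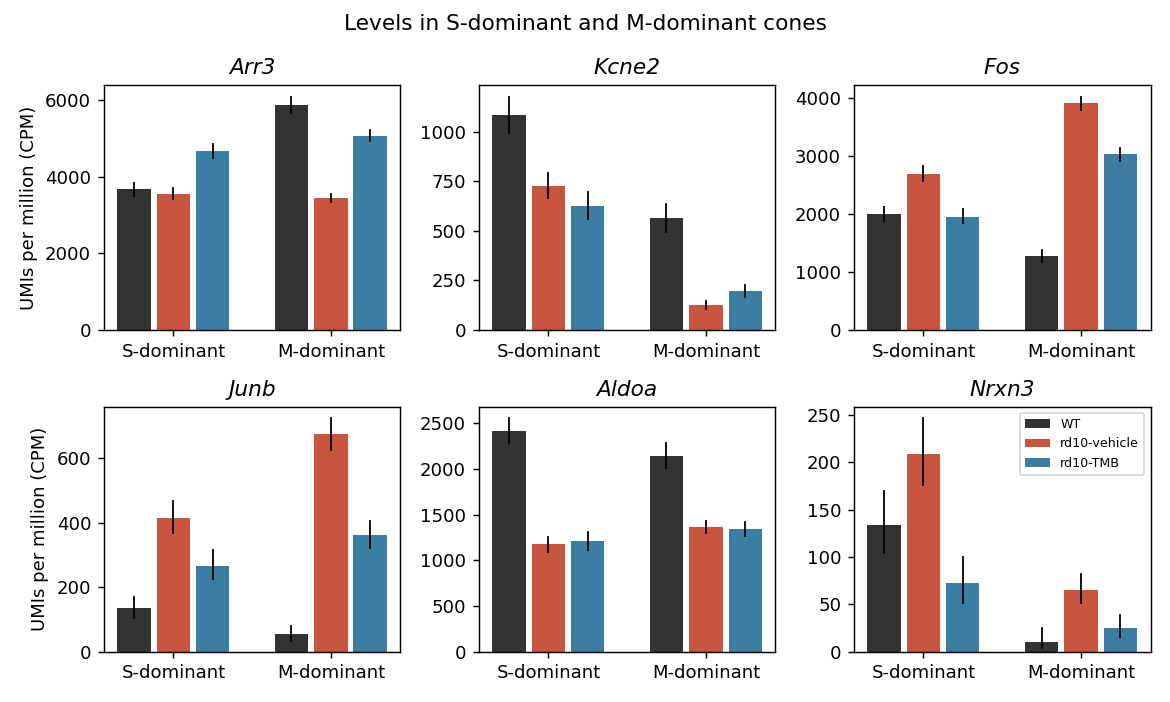
Level in CPM of 6 genes in S-dominant and M-dominant cones of the 3 libraries, with 95% Poisson counting intervals as lines. Arr3 in rd10-vehicle lies below WT in M-dominant cones (3446 against 5865) and beside it in S-dominant cones (3545 against 3665), and Fos in rd10-vehicle exceeds WT more in M-dominant cones.

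Immediate-early genes, transcription factors and feedback regulators induced within minutes of a stimulus, were higher in the cones of both rd10 libraries. Each group was 1 pool of papain-dissociated retinas, so the handling of a pool cannot be told apart from genotype or drug. Of 26 listed genes, 15 had at least 50 UMIs, 13 of them at least 1.5-fold higher in rd10-vehicle than in WT (5.04% of all genes with 50 UMIs), and 11 in rd10-TMB than in WT (4.68%). The list medians were 1.08 and 0.74. Between the rd10 libraries the median was -0.39, with 3 genes at least 1.5-fold lower in rd10-TMB (Junb, Atf3 and Zfp36) and 1 higher (Egr3), where 3.33% of all genes were lower and 2.22% higher. Fos, Fosb and Junb were picked by the study on these libraries, so they are not independent evidence of its direction.

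Fos had 1536, 3260 and 2574 CPM. Junb had 93.3, 527 and 314 CPM, and Egr1 978, 1940 and 1441 CPM. Zfp36, which marks messenger RNAs for decay, had 4.91, 60.8 and 27.6 CPM (7, 156 and 60 UMIs). These were ordered with WT lowest and rd10-vehicle highest. Egr3 was not: it had 6, 42 and 79 UMIs, so that rd10-TMB was highest (1.13, 0.59 to 1.73, over rd10-vehicle). Ier3 and Ier5 had intervals that held 0 in rd10-vehicle over WT.

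Fos and Junb had larger ratios over WT in M-dominant than in S-dominant cones. Fos had 1266, 3901 and 3022 CPM in M-dominant cones of WT, rd10-vehicle and rd10-TMB, and 1993, 2692 and 1952 CPM in S-dominant cones. In S-dominant cones rd10-TMB thus lay beside WT (-0.03, -0.16 to 0.10). The list median for rd10-vehicle over WT was 1.59 in M-dominant and 0.65 in S-dominant cones. For Fos the 2 ratios were 1.62 and 0.43, a difference of 1.19 (1.02 to 1.35), and for Junb 3.60 and 1.61, a difference of 1.99 (1.31 to 2.67). Zfp36 and Ier3 had smaller ratios in M-dominant cones, with intervals that held 0: the differences were -0.40 (-2.84 to 2.04) and -0.46 (-1.12 to 0.19). The step from rd10-vehicle to rd10-TMB was -0.37 and -0.46 for Fos, a difference of 0.09 (-0.04 to 0.23).

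Single cones were compared at an equal depth of 1000 UMIs, which left out 5, 11 and 15 shallower cones. A cone then held a median of 4, 8 and 6 immediate-early UMIs, with quartiles of 1 and 6, 5 and 12, and 3 and 10. Cones with UMIs of Fos, Fosb and Junb together were 2.93% (1.27 to 5.69%), 16.0% (13.0 to 19.4%) and 10.6% (7.73 to 14.0%). Fos alone was seen in 62.3%, 85.3% and 77.8% of cones, and in 88.3%, 95.1% and 93.5% before thinning. In rod bipolar cells Fos was seen in 6.98%, 11.1% and 9.46% at the same depth (26.7%, 32.8% and 32.8% before thinning). The part of free RNA in these shares was not tested. Median depths were 5045, 3642 and 4326 UMIs in the rod bipolar cells, against 5405, 4890 and 5615 in the cones used.

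**Figure D4:**
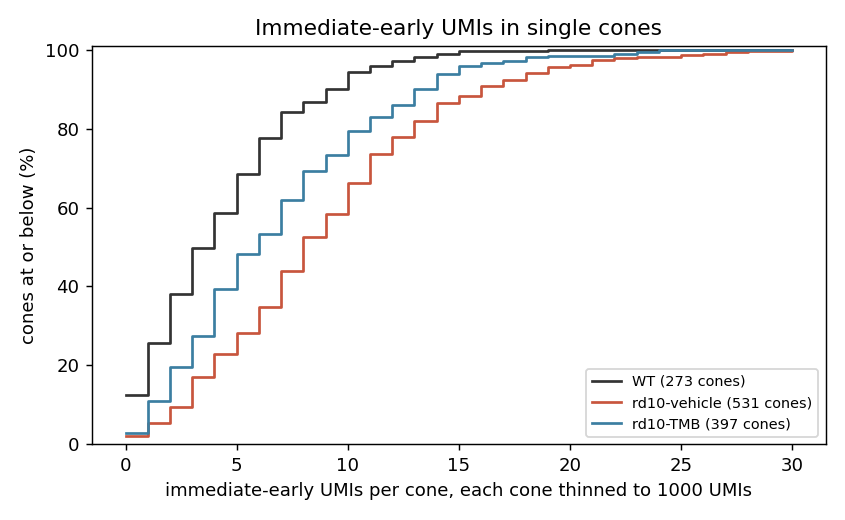
Cumulative share of cones in percent against the immediate-early UMIs of a cone thinned to 1000 UMIs. The curve of WT (273 cones, median 4) lies left of rd10-TMB (397 cones, median 6), and that left of rd10-vehicle (531 cones, median 8).

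The same list was read in the other classes, where levels of Fos and Junb in rod bipolar cells of rd10-vehicle were 2.10% and 2.60% of those in Müller glia, beside 1.88% for Glul (the part of free RNA was not tested). The list median for rd10-vehicle over WT was 1.49 in rods, 1.26 in rod bipolar cells and 0.57 in Müller glia, and between the rd10 libraries -0.05, -0.23 and -0.01 beside -0.39 in cones. For Junb between the rd10 libraries, the ratio in cones minus that in rods was -0.49 (-0.74 to -0.23), minus that in rod bipolar cells -0.08 (-0.37 to 0.21) and minus that in Müller glia -0.74 (-0.87 to -0.60). For Fos the gap to rods was -0.04 (-0.15 to 0.07).

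Several injury genes stood higher in rd10-vehicle cones than in WT cones, from low levels. Of 25 genes of the injury, interferon and antigen presentation list, 8 had at least 50 UMIs, with medians of 0.67 for rd10-vehicle over WT, 0.24 for rd10-TMB over WT and -0.64 between the rd10 libraries. In the first 5 of the 8 were at least 1.5-fold higher (5.04% of all genes), and in the last 4 were at least 1.5-fold lower (3.33% of all genes). Fgf2, a survival factor of photoreceptors, had 11, 104 and 43 UMIs (7.72, 40.5 and 19.8 CPM), a ratio of -1.02 (-1.58 to -0.51) between the rd10 libraries. H2-D1, a class I antigen presentation gene, had 63.2, 189 and 96.2 CPM, and -0.97 (-1.22 to -0.74). Socs3, the feedback inhibitor of cytokine signalling, had 51.2, 83.8 and 51.1 CPM.

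Cebpd, an acute-phase transcription factor, had no UMI in WT cones, while rd10-vehicle held 122 in 90 cones and rd10-TMB 48 in 43 cones. Against a floor of 3 UMIs in the WT cones it was at least 22.6-fold higher in rd10-vehicle and at least 10.5-fold higher in rd10-TMB. Edn2, the endothelin that injured photoreceptors release, had 0, 32 and 8 UMIs and was at least 5.93-fold and 1.75-fold higher. The interferon gene Stat2 and the class I gene H2-K1 had intervals that held 0 in all 3 comparisons. The list median between the rd10 libraries was -0.64 in rods, -0.36 in rod bipolar cells and -0.16 in Müller glia, and for rd10-vehicle over WT it was 1.84, 1.41 and 1.22.

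Müller glia markers moved with several of these genes in cones. Of the 13 markers 8 had at least 50 UMIs in cones, and 6 of them were at least 1.5-fold higher in rd10-vehicle than in WT (5.04% of all genes). Levels relative to Müller glia were taken for these and for Aqp4 and Slc1a3, which had 45 and 32 UMIs and were chosen after their values were seen. Among these 10, in rd10-vehicle cones, 8 stood between 0.783% (Dkk3) and 1.61% (Glul) of their level in Müller glia, Clu stood at 5.33% and Car2 at 36.1%. Gfap had no UMI in WT cones and 11 and 5 in the rd10 libraries. Of the 15 immediate-early genes measured, Fos (51.5%), Egr1 (95.4%) and Nr4a1 (72.7%) stood above all 10 markers. Between Clu and Car2 lay 9 of them, from Atf3 (5.96%), Ier2 (6.54%) and Ier5 (6.80%) to Junb (12.1%), Fosb (30.7%) and Btg2 (35.1%), and below Clu lay Dusp1 (3.42%), Zfp36 (4.28%) and Jun (5.13%). Of the injury genes Fgf2 (58.4%) and H2-D1 (97.0%) stood above all 10 markers, Socs3 (7.10%) between Clu and Car2, and Cebpd (1.42%) within the range of the 8. Mt1 (2.32%), Mt2 (2.34%) and Cryab (2.23%) lay between Glul and Clu. The part of glial RNA in these genes was not tested. The metallothionein Mt1 had 10.5, 161 and 121 CPM in cones and was among the 8 highest genes in both comparisons with WT. Of the antioxidant and metallothionein list 16 genes were measured, and Mt1, Mt2 and Prdx6 were the 3 at least 1.5-fold higher in rd10-vehicle than in WT (5.04% of all genes). The list median was 0.29 for rd10-vehicle and 0.27 for rd10-TMB over WT.

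Targets of the drugs were sparse in cones. Of 14 catecholamine receptor genes, 12 were in the matrix and 2 had at least 50 UMIs. Drd4, the D2-like dopamine receptor of photoreceptors, which the study picked on these libraries, had 207, 246 and 147 CPM. Relative to its level in Müller glia it stood at 2455%, 1272% and 765% in cones and at 5710%, 2417% and 2742% in rods. The part of rod RNA in the cone values was not tested. Between the rd10 libraries the ratio of Drd4 was -0.43 (-0.85 to -0.03) in S-dominant and -0.99 (-1.31 to -0.69) in M-dominant cones. Adrb1, the beta-1 receptor that metoprolol blocks, had 639, 407 and 475 CPM, with -0.65 (-0.78 to -0.52) for rd10-vehicle over WT and 0.22 (0.10 to 0.35) between the rd10 libraries.

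Of 24 genes of the cAMP machinery, 12 were measured, with medians of -0.10, -0.11 and -0.06 in the 3 comparisons. Gnas, the stimulatory G protein, had 421, 435 and 423 CPM. Gnai2, an inhibitory G protein, had 5.61, 24.6 and 22.1 CPM, and in rd10-vehicle stood in cones at 1.81% of its level in Müller glia. Gnaz had 57.5, 44.1 and 29.9 CPM. Of the cAMP-responsive genes outside the immediate-early list 6 were measured, with medians of 0.38, 0.10 and -0.17 in the 3 comparisons. In rd10-vehicle 3 of them were at least 1.5-fold higher than in WT (5.04% of all genes): Cartpt, a neuropeptide gene that the study picked on these libraries, at 16, 87 and 15 UMIs, Crem, a cAMP-responsive repressor and activator, at 20.4, 36.3 and 27.6 CPM, and Gadd45b, a stress-response gene, at 11.9, 23.8 and 21.6 CPM. The other 3 did not exceed WT there: Per1 had 28.1, 27.7 and 28.5 CPM, Gem 71.6, 66.3 and 81.9 CPM, and Ppargc1a 122, 90.8 and 78.7 CPM. The 87 Cartpt UMIs of rd10-vehicle were spread over 63 cones.

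All 12 subunits of mitochondrial complex IV were measured, and none was 1.5-fold apart in any comparison. Of all genes with 50 UMIs, from 2.22% to 5.04% were higher and from 3.33% to 7.09% lower, depending on the comparison. The median of the 12 subunits between the rd10 libraries was 0.21, where that of all genes was 0.01. Cox6c had 954, 841 and 1061 CPM, and Cox8a 2345, 2083 and 2518 CPM. The study picked genes of this complex on these libraries. The other classes had like medians between the rd10 libraries, 0.26 in rods, 0.25 in rod bipolar cells and 0.20 in Müller glia. The 18 chaperone genes measured had a median of 0.17 between the rd10 libraries, and 1, the inducible chaperone Hspa1b, was at least 1.5-fold higher in rd10-TMB, with a log2 ratio of 0.99 (2.22% of all genes were as much higher). Hspa5, the main chaperone of the endoplasmic reticulum, had 509, 503 and 628 CPM, and Hsp90ab1 790, 698 and 878 CPM. The chaperone medians in rods, rod bipolar cells and Müller glia were 0.09, -0.08 and -0.07.

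Of the cell death regulators, 7 genes had at least 50 UMIs, of which 1 was at least 1.5-fold higher and 2 lower in rd10-vehicle than in WT (5.04% and 6.49% of all genes). Bax, which opens the outer mitochondrial membrane, had 34.4, 54.2 and 56.6 CPM. Bcl2, which opposes it, had 14.0, 8.58 and 15.6 CPM (20, 22 and 34 UMIs), a ratio of -0.72 (-1.65 to 0.24) for rd10-vehicle over WT.

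Over all genes with at least 200 UMIs in cones, 98 of 4488 (2.18%) were at least 1.5-fold higher and 88 (1.96%) lower in rd10-vehicle than in WT, and 94 (2.09%) and 110 (2.45%) in rd10-TMB than in WT. Between the rd10 libraries 13 (0.29%) were higher and 35 (0.78%) lower in rd10-TMB. This balance did not hold with cells thinned to 1000 UMIs (290 higher and 239 lower) or with a mitochondrial share of 10% or less (83 and 89). For rd10-vehicle over WT, fewer genes were lower with library size factors in place of UMI totals. More were lower against WT cones with Xist and no Y-linked UMI, and both counts are given below. The highest gene in both comparisons with WT was Frmpd1, a FERM and PDZ domain protein (chr4:45184420-45285936), with 3, 132 and 109 UMIs (2.11, 51.5 and 50.2 CPM). These were spread over 111 and 90 cones of the rd10 libraries. Its ratio for rd10-vehicle over WT was 4.21 (3.03 to 6.91) in cones, 0.50 in rods, 0.31 in rod bipolar cells and 1.40 in Müller glia (3.92 and 11.1 CPM). Cones exceeded rods by 3.70 (2.22 to 5.19) and Müller glia by 2.81 (1.18 to 4.44). Frmpd1 overlaps a gene on the other strand, as do Opn1sw, Gm42697 and Gm44532, and whether strand was used in counting is not given in the sources used here. For rd10-vehicle over WT, the lowest besides Guca1b were F630040K05Rik at 87.0, 20.3 and 36.4 CPM, AC149090.1 at 91.9, 34.7 and 28.1 CPM, Mif, a cytokine, at 378, 150 and 185 CPM, and P4ha1, a prolyl hydroxylase of collagen, at 66.7, 28.1 and 33.6 CPM.

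Between the rd10 libraries, Nrxn3, a presynaptic adhesion protein (chr12:88722701-90334935), was lowest in rd10-TMB, with 72.3, 99.4 and 38.2 CPM and a ratio of -1.37 (-1.76 to -1.02). The ratio was -1.49 in S-dominant and -1.31 in M-dominant cones, and it differed from that in rod bipolar cells by -1.12 (-1.49 to -0.76). Ptprn, a protein of dense-core vesicles, had 89.1, 298 and 137 CPM, and Ttyh1, a membrane protein of the tweety family, 235, 340 and 165 CPM. In Ptprn the rd10-vehicle library stood apart and the other two lay closer together. Highest in rd10-TMB after F630040K05Rik were Diras2, a small GTPase, at 30.2, 34.3 and 60.3 CPM, Cacna1h, a T-type calcium channel, at 44.2, 24.9 and 43.7 CPM, and Kdm7a, a histone demethylase, at 45.6, 39.8 and 69.0 CPM. Rbm3, an RNA-binding protein induced by cold, had 154, 146 and 251 CPM, and Ahsa1, the activator of the HSP90 ATPase, 64.6, 49.5 and 81.0 CPM.

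The 50 genes most particular to cones in the WT library, chosen without the rd10 libraries, were read between the latter. Of them 27 were higher in rd10-TMB and the median was 0.04, where 54.5% of the 4347 genes with at least 50 UMIs in WT cones were above 0 with a median of 0.02. F630040K05Rik was 1.5-fold higher (0.83) and Erich6 1.5-fold lower (-0.67). Of the 8657 genes with at least 50 UMIs over the 3 libraries, 2.22% were as much higher and 3.33% as much lower. The 50 cone genes were thus split like all genes between the rd10 libraries.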

How the data were processed

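Per the labels and the methods of the study, the authors made droplet libraries from papain-dissociated retinas, aligned and counted them with Cell Ranger 6.0.1 on mm10, kept cells with at least 500 genes, removed doublets with Scrublet before deposit, and clustered with Harmony-corrected components; Seurat 3.2.2 is among their tools. The matrix deposited by the authors holds natural log values of 1 plus UMIs per 10000. The cell table deposited by the authors gives the total UMI count, the detected genes, the library and the cluster number of each cell. From both, UMIs were recovered: all 32620606 entries were whole within 0.001 UMI, and all 15242 cells summed to their total count.

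UMIs of the cones of a library were summed over 18545 genes. Genes with at least 200 UMIs entered rankings and those with at least 50 entered lists. A call is a 1.5-fold ratio, not a test. The 95% intervals are exact (conditional binomial for ratios, Poisson for CPM, Clopper-Pearson for shares), and those for differences of ratios are normal approximations. Genes named are members of the lists and the 8 highest and lowest of each ranking. The members and lists were chosen with earlier results of these data known. Positions and windows are from RefSeq on GRCm38 (409 of 416 genes matched). Some listed genes are not reported here. The scripts were tested on simulated data. Tools were Python 3.11.15, numpy 2.4.6, pandas 2.3.3, scipy 1.17.1 and matplotlib 3.10.9.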

Additional observations from a re-analysis of the deposited data

How the results depend on the processing

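No paired analysis was possible because each group has 1 library. Each library is the only one of its group, so no library was left out, and counting error is the only error known. The cause of the changes was not tested. Leaving out the 25% of cones highest in Müller glia or in rod markers was chosen after seeing the data. No list median far from 0 changed sign; those that did were near 0, besides outer segment genes for rd10-vehicle over WT (-0.14, and 0.02 thinned). Arr3 was 0.51 between the rd10 libraries and -0.41 for rd10-vehicle over WT with cells thinned to 1000 UMIs, -0.30 with size factors, -0.31 with a mitochondrial share of 10% or less, and -0.16 (rd10-TMB 0.27) against WT cones with Xist and no Y-linked UMI. Thinned, M-dominant shares of WT, rd10-vehicle and rd10-TMB were 17.4%, 17.5% and 15.6% and S-dominant shares 45.3%, 43.2% and 43.6%; with limits of 0.1 and 0.9, S-dominant shares were 13.5%, 17.0% and 15.1% and 98 genes were lower in M-dominant cones. Cone shares were 7.04%, 15.7% and 13.4% without Müller glia, and 8.53% (WT) and 9.54% (rd10-TMB) with at least 1000 genes per cell.

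Genes 1.5-fold higher and lower in rd10-vehicle over WT numbered 324 and 462 thinned, 436 and 562 with a minimum of 50 UMIs, 35 and 30 with 500, and 27 and 9 at 2-fold; 54 were lower with size factors and 141 against Xist cones. For rd10-TMB over WT they numbered 378 and 477 thinned, 405 and 614 with 50 UMIs, 32 and 34 with 500, 21 and 8 at 2-fold, and 149 and 180 against Xist cones; 160 were higher under the mitochondrial limit. Between the rd10 libraries they numbered 290 and 239 thinned, 192 and 288 with 50 UMIs, 2 and 10 with 500, 0 and 5 at 2-fold, and 83 and 89 under the mitochondrial limit; higher were 50 by the mean over cells, and 32 and 28 without the 25% of cones highest in Müller glia and in rod markers.

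List medians that moved were, for complex IV, 0.0751 (rd10-TMB) and -0.10 (rd10-vehicle) against Xist cones, 0.12 (rd10-TMB) under the mitochondrial limit and 0.0202 (rd10-vehicle) with size factors. For phototransduction they were -0.16 (rd10-TMB over WT, mitochondrial limit), -0.20 (rd10-vehicle over WT, size factors), and -0.31 (rd10-vehicle over WT) and 0.028 (between the rd10 libraries) without the cones highest in rod markers. For glycolysis they were -0.37, -0.48 and -0.0764 thinned (rd10-vehicle over WT, rd10-TMB over WT, between the rd10 libraries), -0.48 (rd10-TMB over WT) without the cones highest in rod markers and -0.52 (rd10-vehicle over WT) without the cones highest in Müller markers. Outer segment genes had 0.0227 thinned and -0.20 without the cones highest in Müller markers (rd10-vehicle over WT) and -0.00878 between the rd10 libraries under the mitochondrial limit. Fate factors for rd10-vehicle over WT had -0.34 thinned and -0.37 without the cones highest in rod markers.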

Other observations

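Gnb1, the beta subunit of the rod transducin, was among the 8 lowest genes in rd10-vehicle cones, with 109, 50.3 and 60.3 CPM in WT, vehicle and TMB (-1.11, -1.46 to -0.77, for rd10-vehicle over WT). Prdx6 stood at 27.4, 57.3 and 57.1 CPM in cones, and in rd10-vehicle at 2.39% of its level in Müller glia. Car8, which was higher in M-dominant cones of each library, had 30.9, 92.4 and 127 CPM over all cones. Ldhb, the lactate dehydrogenase that favours pyruvate, was higher in M-dominant than in S-dominant cones in each library, with log2 ratios of 0.97 in WT and 1.47 in rd10-TMB and a value between these in rd10-vehicle. Gem and Ier3 were lower in M-dominant cones of each library, with medians of -0.53 and -0.67.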
